A study of Homo sapiens with 9 samples.

Results

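The HOX genes are the members of the 4 HOX clusters, chosen as every gene whose symbol is HOX followed by a cluster letter (A to D) and a paralog number. The rule found 39 of the 57338 genes in the table: 11 in HOXA, 10 in HOXB, 9 in HOXC and 9 in HOXD. By the labels, their RNA was measured in the HEK293T line, which derives from human embryonic kidney and expresses the SV40 large T antigen, transfected with a plasmid for EGFP alone (the empty vector, pcDNA3.1-EGFP), for EGFP with human protamine 1 (hPRM1) or for EGFP with human protamine 2 (hPRM2). Cells with high EGFP fluorescence were sorted 3 days after transfection, and 3 libraries of each of the 3 groups were made from the 3′ ends of mRNA. By this description all groups carried EGFP from a transiently transfected plasmid in a single line, which the markers described below do not bear out for the libraries labelled hPRM1. The sources used here do not say that the 3 libraries of a group came from separate cultures, so p-values measure the spread between these libraries, which may be technical.

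HOX proteins are transcription factors that bind DNA through a homeodomain, usually together with PBX, MEIS and PKNOX partners. In the embryo the genes of a cluster are switched on in their order along the chromosome, low paralog numbers towards the head and high numbers towards the tail and in the limb buds, and Polycomb and Trithorax complexes keep that state through later divisions. A cultured line therefore tends to carry a fixed combination of HOX genes as a mark of the position its cells came from. In the kidney, HOXA11 and HOXD11 are required together for the growth of the ureteric bud.

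In GENCODE 29 (GRCh38) HOXA lies on chromosome 7, while the members of HOXB span chr17:48528526-48729178, those of HOXC chr12:53938765-54056030 and those of HOXD chr2:176092891-176190907. The reads came from the 3′ ends of the transcripts, so the ends decide whether paralogs can be told apart. Of the 39 members, 2 shared at least 50 bases at 95% identity or more within the last 400 bases with another HOX gene: HOXD11 with HOXD10, whose annotations overlap, and HOXA6 with HOXA7, which do not overlap but resemble each other over 73 bases. In all, 8 members matched some other gene. HOXA4, HOXA7, HOXB6, HOXD1 and HOXD3 matched an RNA of the opposite strand, HOXD3 and HOXD4 matched a further RNA of their own strand, and HOXA6 also matched unrelated genes. How reads on these stretches were assigned is not given in the sources used here, so the values of these 8 genes are uncertain, as is that of HOXD10.

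HOXC4 and HOXC5 also share a RefSeq promoter window, printed because the pair differed strongly in level in the empty vector libraries. It lies at chr12:54016638-54016937 (GRCh38.p14, plus strand), from 250 bases before to 50 after the annotated start, with each CG in capitals.
HOXC4 and HOXC5: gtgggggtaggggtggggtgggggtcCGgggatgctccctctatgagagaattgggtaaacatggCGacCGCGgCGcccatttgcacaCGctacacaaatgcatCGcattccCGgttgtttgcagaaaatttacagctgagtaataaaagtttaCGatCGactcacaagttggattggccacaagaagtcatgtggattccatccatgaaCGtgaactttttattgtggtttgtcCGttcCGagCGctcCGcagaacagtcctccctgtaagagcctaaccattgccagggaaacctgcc
The window held 15 CG pairs, against a median of 22 over the 27 windows found for 20 of the 39 members and of 14 over all 35116 windows of that length. In the empty vector libraries HOXC4 was at 18.8, 33.3 and 25.3 RPKM while HOXC5 was listed at 0 in all 3. In GENCODE 29 HOXC4 starts at position 54016931 and HOXC5 further along the strand, at 54032853. The same RefSeq window is thus listed for a member that was read and a member that was not. Reads from 3′ ends do not show which start a transcript used, so no level is tied to this window.

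The values are reads divided by gene length and by the reads of the library (RPKM). Estimated reads on genes were 7930000 to 10790000 per library for the empty vector, 4210000 to 5860000 for those labelled hPRM1 and 1270000 to 2650000 for hPRM2. By these estimates a low level was measured least precisely in the hPRM2 libraries. The average read totals that the study reports are higher and put hPRM2 above hPRM1, so the estimates do not stand for those totals. PRM2 was listed at 0 in the empty vector libraries and at 36130 to 71224 RPKM in those of hPRM2. PRM1 was listed at 0 in all 9 libraries, those labelled hPRM1 included, which goes against their label. The 3 libraries labelled hPRM1 also stood apart in their cell markers. Of 10 HEK293T marker genes, 7 were at 0 in all 3 of them, and the summed level was 0.555 to 1.67 RPKM there, against 173 to 235 in the empty vector libraries and 80.7 to 147 in those of hPRM2. Blood markers went the other way: all 10 erythroid genes were above 0 in at least 1 library labelled hPRM1, 7 of them at 1 RPKM or more in all 3, and they summed to 2060290 to 2266470 RPKM, against 8.14 to 32.6 for the empty vector. For 10 neutrophil and monocyte genes, 9 of them above 0, the sum was 6121 to 7211 RPKM against 0.284 to 3.02. The 10 lymphocyte genes, all above 0, summed to 648 to 895 RPKM against 0 to 1.43. The markers therefore go against the HEK293T label of these 3 libraries. HBB was at 0 in all 6 other libraries, as was the myeloid gene TYROBP. The library names in the labels also number the libraries labelled hPRM1 apart from the other 6, without saying what the numbers mark. The part of these other cell markers in the HOX results was not tested.

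The first question was which HOX genes the cells carried without a protamine. In the empty vector libraries 33, 31 and 32 of the 39 members were at 1 RPKM or more (mean 32 ± 1, SD, n = 3), and 31 reached it in all 3. HOXA13, HOXB1, HOXC5 and HOXD12 were listed at 0 in all 3. Each cluster thus had 1 member that was not read, and most of the family was. The members summed to 746 ± 49.5 RPKM (SD, n = 3), of which HOXA held 30.8% ± 3.13, HOXC 28.9% ± 0.965, HOXB 23.2% ± 0.449 and HOXD 17.2% ± 3.81. By position, paralogs 1 to 3 held 5.39% ± 0.186 of the sum, paralogs 4 to 8 held 48.1% ± 0.994 and paralogs 9 to 13 held 46.5% ± 0.969. The median of the 35 members above 0 was 14.9 RPKM, where that of all 18634 genes above 0 was 5.74.

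**Figure D1:**
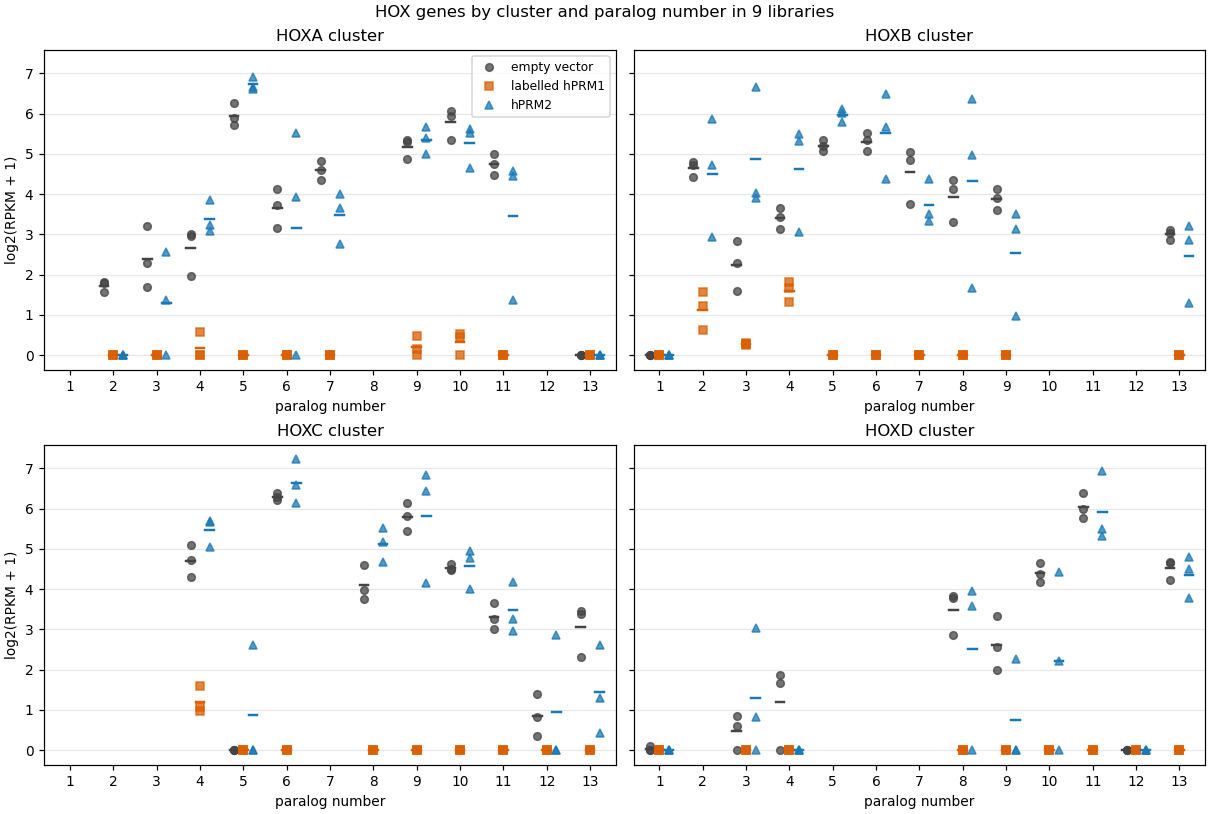
Level of the HOX genes in the 9 libraries as log2(RPKM + 1), in 1 panel per cluster, against the paralog number. Points are libraries (circles, empty vector; squares, labelled hPRM1; triangles, hPRM2), short lines are group means, and gaps are paralogs that the cluster lacks or that are not shown. Circles peak between paralogs 5 and 11 in each cluster, triangles lie around them with a wider spread, and squares lie at or near 0.

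HOXC6, a gene of the forelimb level of the trunk, had the highest mean, with 73.0, 77.1 and 82.2 RPKM. HOXD11, one of the kidney pair, followed with 53.3, 62.4 and 82.0 RPKM. HOXA5, which patterns the neck and the lung, was at 58.5, 75.3 and 51.3 RPKM. These 3 leaders come from 3 different clusters. HOXC9, which sets the thoracic identity of motor neurons, and HOXA10, which acts in the uterus and the hindlimb, had means of 55.8 and 55.3 RPKM. The ranges of neighbours in the order of means overlapped in all 34 of 34 pairs, so the data do not separate any member from the next. Reads from 3′ ends do not grow with gene length, and without the division by length HOXA10 was above HOXA5 and HOXD11, with HOXC6 still the highest.

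HOXA9, a gene of blood stem cells and of the trunk, and HOXC10 were chosen as a check of the line's HOX profile. HOXA9 was at 38.6, 39.8 and 28.3 RPKM in the empty vector libraries. HOXC10, a lumbar gene, was at 23.6, 21.2 and 21.4 RPKM, the narrowest range of the 2. Both were thus clearly present under the empty vector. In the libraries labelled hPRM1, HOXA9 was at 0.385, 0 and 0.106 RPKM and HOXC10 was listed at 0 in all 3. In those of hPRM2, HOXA9 was at 41.2, 50.02 and 30.9 RPKM and HOXC10 at 15.0, 26.6 and 29.9 RPKM. The hPRM2 ranges of both genes overlapped those of the empty vector, whereas the libraries labelled hPRM1 lay below all others.

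Likeness of the whole profile gave the same order of groups as a description. Over the 39 members, whose points share a library, the mean Spearman correlation was 0.954 among the empty vector libraries, 0.813 ± 0.0901 (SD) over the 9 pairs with hPRM2 libraries and 0.148 ± 0.0700 over the 9 pairs with libraries labelled hPRM1. On average the hPRM2 libraries were no closer to each other (0.783 ± 0.128, SD) than to the empty vector. Replicates 2 and 3 correlated at 0.931, and the pairs with replicate 1 at 0.711 and 0.708.

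The comparison of hPRM2 with the empty vector asked which HOX genes changed when protamine 2 was present. HOXA2, which patterns the hindbrain and the branchial arches, was the 1 member of 31 tested that was called lower, and 0 were called higher. It was at 2.50, 2.47 and 1.96 RPKM in the empty vector libraries and listed at 0 in all 3 hPRM2 libraries. The difference was -1.72 on the log2(RPKM + 1) scale (SE 0.32, adjusted p = 0.0435, limma). HOXA2 was tested through the empty vector alone and so had to differ, and the call is a description. At the empty vector level about 19.7 reads were expected in the pooled hPRM2 libraries, and with 0 seen the level was at least 6.56-fold lower, taking 3 reads over the group as the limit that a count of 0 allows. The call held under 4 of 15 other settings and was lost under the other 11, among them the removal of any empty vector library (adjusted p 0.129 to 0.166). Among all 13126 genes tested, 1.37% were called lower and 1.36% higher (2.74% in either direction), so 1 of 31 members is near the background.

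The remaining 30 members tested did not pass. In all, 4 of the 31 members had an unadjusted p under 0.05 in limma, HOXA2 among them, where 3351 of all 13126 genes tested did. Without overlap between the groups, 3 members were lower (HOXA2, HOXA7 and HOXB9) where 29.9% of all genes tested were, and 5 were higher (HOXA4, HOXA5, HOXB3, HOXB5 and HOXC8) where 6.01% were. The median over the 31 members was -0.12, and over all genes tested -0.72. Both medians moved by more than 0.1 under other scalings: with median-of-ratios scaling they were 0.38 and -0.26. In every setting that gave both, the members' median lay above that of all genes.

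The 5 higher members range from a hindbrain gene to a thoracic one. HOXA5 was at 97.0, 119 and 101 RPKM with hPRM2, above all 3 empty vector libraries (difference 0.78, SE 0.32, adjusted p = 0.191). HOXB5, which acts in neural crest cells of the gut, was at 63.6, 68.8 and 54.5 RPKM against 35.7, 32.7 and 39.8 (0.77, SE 0.34, adjusted p = 0.205). HOXC8, a thoracic gene, was at 24.4, 44.6 and 34.9 RPKM against 23.3, 14.7 and 12.4 (1.01, SE 0.46, adjusted p = 0.223). These 3 genes were higher in all 3 hPRM2 libraries, and did not pass over all genes. HOXA4 was at 13.5, 7.44 and 8.43 RPKM against 6.83, 2.93 and 7.09 (0.74, SE 0.58, adjusted p = 0.434).

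HOXB3, a hindbrain gene, had the largest estimate and the most uneven libraries. It was at 100.8, 15.3 and 14.01 RPKM with hPRM2 against 3.92, 6.10 and 2.03 (2.63, SE 0.86, adjusted p = 0.128). Replicate 1 stood far above the other hPRM2 libraries, and without it the estimate was 1.73. HOXB4, which lies within the span of HOXB3 and promotes the renewal of blood stem cells, had the opposite pattern. It was at 7.31, 38.97 and 43.8 RPKM against 9.86, 11.5 and 7.75 (1.22, SE 0.73, adjusted p = 0.328). HOXB4 was thus higher in 2 of 3 hPRM2 libraries. Without replicate 1, the library in which it was low, its estimate was 2.0 and it was called higher (adjusted p = 0.0233, limma). In that fit 810 of all 13126 genes tested were called higher, against 179 with all 3 hPRM2 libraries.

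The same library separated other neighbours. Of the hPRM2 libraries, replicate 1 had 13 members at 0, replicate 2 had 9 and replicate 3 had 7, and 5 members were at 0 in replicate 1 alone. HOXA6 was at 0, 44.6 and 14.3 RPKM, HOXD8 at 0, 14.5 and 10.99 RPKM, and HOXD10 at 0, 3.61 and 20.5 RPKM. HOXB8, a gene of myeloid progenitors and the spinal cord, ran from 2.16 to 80.8 RPKM. Replicate 1 was the deepest of the 3 hPRM2 libraries, with 2650000 estimated reads, although only 9652 genes were above 0 in it against 14353 and 15633. The median SD of log2(RPKM + 1) was taken over the 31 members with a mean of at least 1 RPKM over the 9 libraries. These are not the 31 tested, as they leave out HOXA2 and take in HOXD3. It was 1.06 among the hPRM2 libraries and 0.324 among those of the empty vector. Over 14901 genes it was 0.910 and 0.372, and the hPRM2 libraries were thus also more uneven over all genes.

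Fewer members were lower than higher without overlap, although 17 of the 31 estimates were negative and 14 positive. HOXA7, a trunk gene, was at 5.76, 15.1 and 11.6 RPKM against 19.4, 27.2 and 23.2 (-1.12, SE 0.52, adjusted p = 0.226). HOXB9 was at 0.970, 10.4 and 7.74 RPKM against 11.2, 16.4 and 14.04 (-1.34, SE 0.77, adjusted p = 0.308). HOXA11, the partner of HOXD11 in the kidney, was at 1.598, 20.8 and 22.7 RPKM against 25.7, 30.8 and 21.3 (-1.27, SE 0.90, adjusted p = 0.389). For HOXA11, 1 library carried most of the difference, and the groups overlapped. HOXD11 was at 122, 44.4 and 38.6 RPKM (-0.12, SE 0.51, adjusted p = 0.890), and HOXD10 had the lowest estimate of all members (-2.19, SE 1.08, adjusted p = 0.249).

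**Figure D2:**
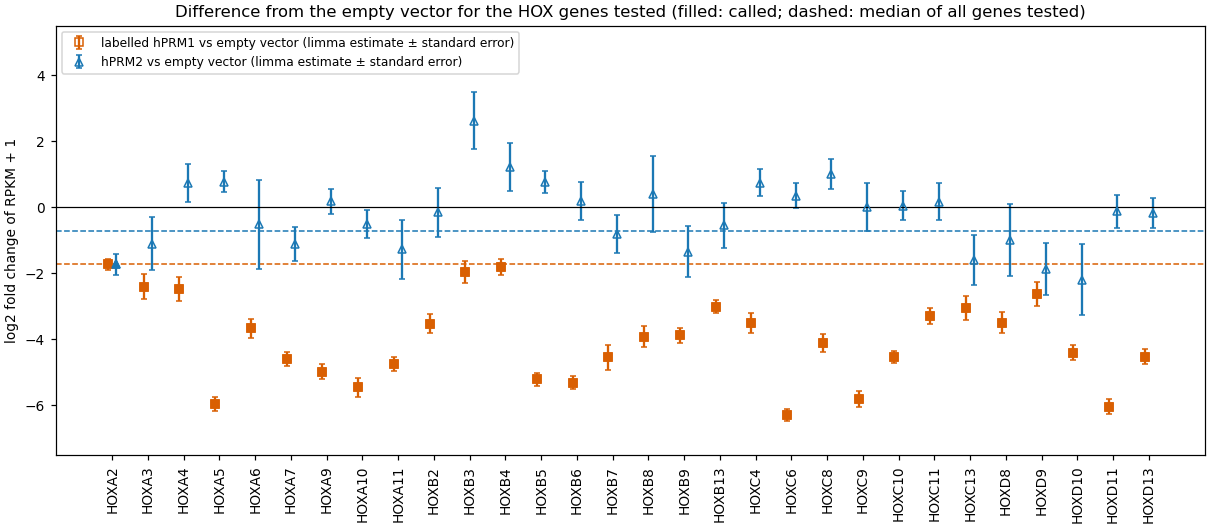
Difference from the empty vector on the log2(RPKM + 1) scale for HOX genes that were tested, with the standard error of the limma fit as bars; squares, libraries labelled hPRM1; triangles, hPRM2; filled symbols were called. Dashed lines give the median of all genes tested, -1.72 and -0.72. The squares lie at or below about -1.7, while the triangles lie on both sides of 0 and only HOXA2 is filled.

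The other members tested overlapped between hPRM2 and the empty vector. HOXA3, which acts in the thymus and parathyroid, was at 0, 1.56 and 4.86 RPKM with hPRM2 against 8.18, 3.92 and 2.25. HOXA10 was at 24.3, 48.5 and 45.0 RPKM against 60.1, 66.1 and 39.6. For HOXA10, replicate 1 was the lowest hPRM2 library and the farthest from the others. HOXA6, with the values given above, had been at 16.4, 12.2 and 7.90 RPKM under the empty vector.

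In HOXB, HOXB2 was at 56.9, 25.2 and 6.63 RPKM with hPRM2 against 20.7, 26.8 and 25.5. HOXB6, a trunk gene, was at 19.8, 88.2 and 50.2 RPKM against 39.7, 32.5 and 44.6. HOXB7 was at 10.4, 9.11 and 19.7 RPKM against 32.2, 27.6 and 12.4. None of these was called, and the hPRM2 values lay on both sides of the empty vector ones for HOXB2 and HOXB6. HOXB8 had been at 16.4, 19.4 and 8.84 RPKM under the empty vector. HOXB13, a prostate gene apart from the rest of its cluster, was at 6.21, 1.47 and 8.31 RPKM against 7.65, 7.20 and 6.28.

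In HOXC, HOXC4 was at 49.5, 50.5 and 31.8 RPKM with hPRM2. HOXC6 was at 69.1, 148 and 94.9 RPKM. HOXC9 was at 16.8, 114 and 85.0 RPKM against 55.7, 69.1 and 42.6. Replicate 1 was the lowest of the group for HOXC6 and HOXC9. HOXC11 was at 17.0, 8.61 and 6.81 RPKM against 8.59, 11.5 and 6.99. HOXC13, a gene of hair and nails, was at 0.347, 1.45 and 5.15 RPKM against 9.46, 9.96 and 3.93.

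In HOXD, HOXD9 was at 0, 0 and 3.84 RPKM with hPRM2 against 2.96, 4.91 and 8.99. HOXD13, the digit gene, was at 26.7, 12.6 and 21.6 RPKM against 24.1, 17.8 and 24.6. HOXD8 and HOXD10 had been at 6.24 to 13.3 and 17.1 to 24.1 RPKM under the empty vector. By cluster, the 7 HOXC members tested had a median difference of 0.17 and the 9 of HOXB 0.20, while the 10 of HOXA had -0.51 and the 5 of HOXD -0.98. The cluster medians are descriptions, and their difference was not tested.

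The 8 members not tested were too low: HOXA13, HOXB1 and HOXD12 were listed at 0 in all 9 libraries. HOXC5 was read in 1 library, the hPRM2 replicate 3, at 5.11 RPKM. HOXC12, HOXD1, HOXD3 and HOXD4 ranged from 0 to 7.21 RPKM over all libraries. HOXD4 was at 2.18, 0 and 2.67 RPKM under the empty vector and at 0 with hPRM2, where 11.4 reads were expected at the empty vector level. Summed over the 39 members, the hPRM2 libraries held 815, 1122 and 866 RPKM (mean 934 ± 164, SD, n = 3), above all 3 empty vector libraries at 695 to 793, and 28 ± 3.61 members were at 1 RPKM or more.

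The libraries labelled hPRM1 were compared with the empty vector in the same way, and held almost no HOX reads. The 39 members summed to 5.60, 5.79 and 5.07 RPKM (mean 5.49 ± 0.376, SD, n = 3). In reads, the 3 libraries held about 195 together, where 20640 were expected at the empty vector level. Of the members, 32 were listed at 0 in all 3 libraries, 4 of them also in the empty vector. For 27 members at 0 the level was at least 4.30-fold lower (HOXD3) to at least 1070-fold lower (HOXC6), with a median of 136 over these bounds. In bulk RNA, fewer cells of a type and less RNA per cell cannot be told apart.

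In the fit, 31 of 31 members tested were called lower and 0 higher, where 62.5% of the 13588 genes tested were called lower and 12.9% higher (75.4% in either direction). The members' differences ran from -6.29 (HOXC6, SE 0.18) to -1.72 (HOXA2, SE 0.16), with a median of -3.92 against -1.72 over all genes, and their adjusted p ran from 2.46e-06 to 0.00139 (limma). In 28 of the 31, no library labelled hPRM1 reached 1 RPKM, so these were tested through the empty vector alone and had to differ, and the count is a description. Every one of the 31 was lower without overlap, as were 66.4% of all genes tested. The clusters had medians of -4.13 (HOXA), -3.88 (HOXB), -4.11 (HOXC) and -4.40 (HOXD). HOXA9 differed by -4.97 (SE 0.24, adjusted p = 7.14e-06) and HOXC10 by -4.53 (SE 0.19, adjusted p = 4.62e-06).

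Other scalings were run, although a level of 0 stays at 0 under a change of scale, so most HOX genes had to stay lower. With median-of-ratios scaling the median of all genes was 0.07, with 3714 of 13352 called lower and 4205 higher, in place of 8491 and 1750 of 13588. The HOX median was then -3.07, and 28 of 29 members tested were called lower. HOXB4 was the exception, with -0.05 (adjusted p = 0.878) in place of -1.80 (SE 0.24, adjusted p = 0.000464). With quantile normalization 29 of 31 were called lower, and HOXB4 (-0.24) and HOXB3 (-0.75) were not. Of all 13588 genes, 4388 were then called lower and 3475 higher.

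The few HOX reads in the libraries labelled hPRM1 came from 7 members: HOXA4, HOXA9, HOXA10, HOXB2, HOXB3, HOXB4 and HOXC4. HOXB4 held 109 of the pooled reads, with 31.0, 32.0 and 46.03 per library, at 1.51, 2.17 and 2.51 RPKM. HOXC4 held 28.0 reads at 1.08, 2.01 and 0.946 RPKM, and HOXB2, a hindbrain gene, held 27.0 at 1.95, 0.543 and 1.31 RPKM. These 3 genes and HOXB3, with 12.96 reads at 0.193 to 0.229 RPKM, were the members above 0 in all 3 libraries. HOXA10 held 9.52 reads, HOXA9 5.08 and HOXA4 3.04, each at 0 in at least 1 library and at no more than 0.482 RPKM. HOXB thus made up 65.2% ± 14.4 of this small sum, HOXC 24.3% ± 9.08 and HOXA 10.5% ± 7.31, while HOXD was listed at 0 throughout. Of the leading HOX genes of the empty vector libraries, HOXC6, HOXD11, HOXA5 and HOXC9 were at 0 here, while HOXA10 had the few reads given above. The blood markers and HEK293T markers given above moved with this pattern, and their part in it was not tested.

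**Figure D3:**
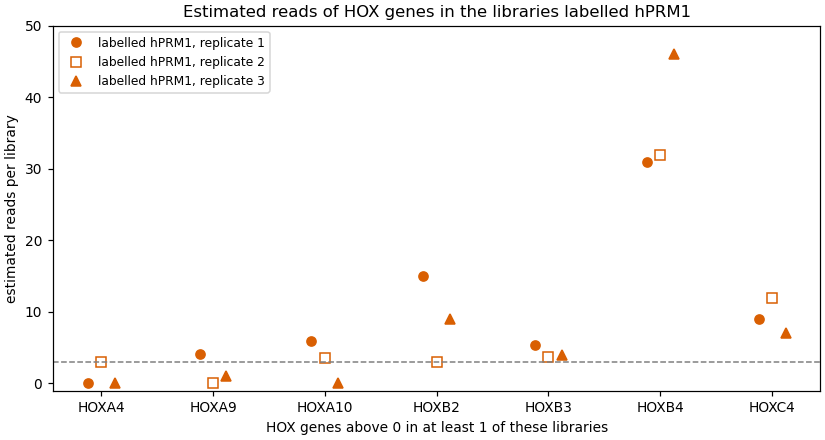
Estimated reads per library for the 7 HOX genes above 0 in the libraries labelled hPRM1, with 1 symbol per replicate; the dashed line marks 3 reads, the limit that a count of 0 allows. HOXB4 lies between 31.0 and 46.03 reads, and the other 6 genes at no more than 15.0.

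Set directly against the hPRM2 libraries, which share no control with them, the libraries labelled hPRM1 were lower for 22 of 22 members tested and higher for 0, where 37.0% of the 11756 genes tested were called lower and 16.0% higher (53.0% in either direction). The groups did not overlap for any of the 22, as for 43.1% of all genes in that direction. HOXA5 differed most, by -6.73 (SE 0.33, adjusted p = 6.61e-05, limma), and HOXB13 least, by -2.46 (SE 0.54, adjusted p = 0.00940). HOXA9 differed by -5.15 (SE 0.39) and HOXC10 by -4.58 (SE 0.41). In 19 of the 22, no library labelled hPRM1 reached 1 RPKM, so these had to differ as well. With the per-gene test of the methods 0 of the 22 passed, where 103 of the 11756 genes tested were called lower and 116 higher. In that test 10 of the 22 had an unadjusted p under 0.05, as did 3233 of the 11756 genes.

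The partners and regulators of HOX genes were counted from lists of known genes, chosen with earlier results of these data in view. Of the 9 PBX, MEIS and PKNOX cofactors, 8 were called lower in the libraries labelled hPRM1 and 1 higher (62.5% and 12.9% of all genes tested), and 7 and 1 with either other scaling. MEIS3 was at 49.7, 34.1 and 48.1 RPKM in the empty vector libraries and at 0, 0 and 0.605 in those labelled hPRM1 (-5.24, SE 0.29, adjusted p = 1.03e-05). MEIS1, MEIS2, MEIS3 and PKNOX2 reached 1 RPKM in no library labelled hPRM1, so these had to differ. PBX2, the gene that was higher, was at 1.99, 3.18 and 0.789 RPKM against 3.80, 5.51 and 5.23 (1.04, SE 0.35, adjusted p = 0.0306). With hPRM2, 0 of 9 were called in limma, and 0 had an unadjusted p under 0.05, where 3351 of all 13126 genes tested did. The cofactor median was -2.99 for the libraries labelled hPRM1 (-1.72 over all genes) and -0.59 for hPRM2 (-0.72).

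Of 20 RNAs transcribed within the clusters, 6 were tested for the libraries labelled hPRM1. All 6 were called lower, where 62.5% of all genes tested were. Under either other scaling 3 stayed called: HOXA10-AS, HOXB-AS3 and HOXD-AS2. Of all genes, 3714 of 13352 were then called lower with median-of-ratios scaling and 4388 of 13588 with quantile normalization. HOTAIR and these 3 RNAs were at 0 in all 3 libraries labelled hPRM1 and had to differ. The RNAs tested that had reads there were called lower only without these scalings. HOXB-AS3 was at 168, 288 and 229 RPKM in the empty vector libraries and listed at 0 in those labelled hPRM1 (-7.81, SE 0.25, adjusted p = 2.79e-06). HOXA10-AS was at 23.1, 37.3 and 48.7 RPKM and likewise at 0 (-5.16, SE 0.30, adjusted p = 1.29e-05). HOXD-AS2 was at 10.2, 8.34 and 15.3 RPKM and was at 0 in both other groups. It was the 1 of 14 called lower with hPRM2 (-3.58, SE 0.51, adjusted p = 0.0268, limma), where it too had to differ. Of all genes tested with hPRM2, 1.37% were called lower.

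Among regulators, 15 of 19 Polycomb genes, which hold HOX genes silent, were called lower in the libraries labelled hPRM1 and 1 higher (CBX7, 1.75, SE 0.56), where 62.5% and 12.9% of all genes tested were. PCGF2 was lowest (-6.76, SE 0.51), from 56.8, 107 and 242 RPKM to 0.177, 0 and 0. PCGF2, CBX2 and RNF2 reached 1 RPKM in no library labelled hPRM1, so these had to differ. Of 12 Trithorax and MLL genes, which hold HOX genes active, 10 were called lower, led by DPY30 (-5.02, SE 0.22). Among these, DOT1L reached 1 RPKM in no library labelled hPRM1 and had to differ. The list medians were -2.58 and -2.08, against -1.72 over all genes. These 2 lists depended on the scale: with median-of-ratios scaling 8 Polycomb genes were lower and 4 higher, and 2 Trithorax and MLL genes were lower and 2 higher. Of 8 CDX and retinoid genes tested, which act upstream of HOX genes, 6 were lower and 1 higher, but 4 and 3 of 9 tested with median-of-ratios scaling. These shares are near those of all genes, as is the list median of -1.89. ALDH1A2, which makes retinoic acid, fell most, from 156, 169 and 192 RPKM to 0, 0 and 0.398 (-7.27, SE 0.23), and RXRA was the gene that was higher (2.14, SE 0.20). ALDH1A2, CDX2, RARB and RARG reached 1 RPKM in no library labelled hPRM1, so these had to differ. Of 11 other homeobox genes of the same class, 10 were lower (8 of 9 with median-of-ratios scaling), and MNX1 went from 68.3, 59.9 and 76.9 RPKM to 0 (-6.11, SE 0.20). No library labelled hPRM1 reached 1 RPKM for any of these 10, so they had to differ, and the count is a description. With hPRM2, 0 of the 19 Polycomb, 0 of the 12 Trithorax and MLL and 0 of the 8 CDX and retinoid genes were called in limma, where 5, 2 and 4 of them had an unadjusted p under 0.05. Of all 13126 genes tested, 3351 did. Where 1.37% of all genes tested were called lower, 1 of the 12 other homeobox genes was. This was the pancreas gene PDX1, at 2.91, 3.01 and 3.30 RPKM under the empty vector and listed at 0 with hPRM2 (-2.03, SE 0.34, adjusted p = 0.0377), so it too had to differ. With quantile normalization neither PDX1 nor HOXD-AS2 was called.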

How the data were processed

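The authors made the deposited RPKM values with the nf-core/rnaseq pipeline, leaving out mitochondrial genes and dividing each gene's reads by the library total and by gene length. The submitters' processing notes name FastQC, cutadapt, STAR and Salmon, without versions, and hg38. The annotation is not given in the sources used here. The table held 57338 genes in 9 libraries without counts, and 98.6% of its identifiers matched a symbol.

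Libraries were grouped by their labels. Genes at 1 RPKM or more in at least 3 of the 6 libraries compared were tested on log2(RPKM + 1) with limma 3.58.1 (lmFit, then eBayes with trend and robust) in R 4.3.3, with Benjamini-Hochberg adjustment over all genes tested. Genes with an adjusted p of at most 0.05 that changed at least 2-fold were called. The added 1 makes the fold change of a low gene too small. The study's methods test each gene separately; limma replaced that test because it shares the spread across genes, and the per-gene test was kept as an alternative. Both protamine comparisons share the empty vector libraries.

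Reads were estimated from RPKM, the length of the longest coding transcript in GENCODE 29 less 250 bases, and the step that 1 read gives; of 21 low values of single-transcript HOX genes, 20 lay within 0.15 of a whole number. The longest transcript may be the wrong one for other genes. Limits of 3 reads cover counting error only. Promoter windows came from the RefSeq table (GRCh38.p14), where 20 of 39 members matched. Descriptive values used Python 3.11.15 (pandas 2.3.3), and figures matplotlib 3.10.9.

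By the rule for named genes, each HOX gene tested is named with its values and the others are given by count and range; some items that this rule names are not reported here. Of the other lists, at most the 3 called genes with the largest rise and the 3 with the largest fall in each comparison with the empty vector were eligible. Genes named only because they had to differ are an exception. The members and lists were chosen with earlier results of these data known. The settings varied were the pseudocount (0.1 or 5), the filter (none, or 10 RPKM), the scaling (median of ratios or quantile), the libraries fitted (all 9, or without each in turn), a block for the replicate number and the fold threshold (none).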

Additional observations from a re-analysis of the deposited data

How the results depend on the processing

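For the libraries labelled hPRM1 against the empty vector, 31 HOX genes were called lower. With a minimum of 10 RPKM 18 of 18 tested were, as were 4970 of all 6983 genes. The per-gene test of the methods called 16 of 31 lower, and 3723 of all 13588 genes. Leaving out each library gave 31 to 31. For hPRM2 the 1 call became 0 with a pseudocount of 5, no filter, a minimum of 10 RPKM, median-of-ratios scaling, quantile normalization and the per-gene test (2 to 7 genes at an unadjusted p under 0.05). It became 2 in the fit of all 9 libraries, with HOXB3 called higher beside HOXA2. That fit called 1618 of all 13126 genes lower and 507 higher, against 180 and 179 at the main setting. Leaving out each library gave 0 to 2 calls (1 to 8 genes at an unadjusted p under 0.05). The 2 calls came without hPRM2 replicate 1, where 1619 of all 13126 genes were called lower and 810 higher. At the main setting 4 of 31 members and 3351 of all 13126 genes had an unadjusted p under 0.05 (limma). For the libraries labelled hPRM1 against hPRM2, 22 calls became 13 of 13 tested with a minimum of 10 RPKM, and 18 to 22 without each library. With the per-gene test they became 0, where 103 of all 11756 genes were called lower and 116 higher.

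Replicate numbers did not pair the libraries (correlations of same-numbered deviations -0.08 to 0.08). With a replicate block the calls were 31, 0 and 22, with 3 hPRM2 genes at an unadjusted p under 0.05.

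Members at a limit of 0.1 or 5 RPKM in place of 1 numbered 33.3 and 26.7 for the empty vector (32) and 5.67 and 0 for those labelled hPRM1 (2.33). The summed level was 352 RPKM for the empty vector, 14.8 for those labelled hPRM1 and 675 for hPRM2 after median-of-ratios scaling, and 1357, 12.8 and 1777 RPM without the division by length. Members listed at 0 in the libraries labelled hPRM1 could not change direction. For hPRM2, HOXC10 at 0.05 was -0.13 without hPRM2 replicate 3, -0.05 without replicate 2, 0.34 without replicate 1 and 0.59 with median-of-ratios scaling, and the other 10 members followed kept their direction. Depth limits the hPRM2 libraries most, where a gene at 0 was bounded at 3.79-fold (HOXD4) and 6.56-fold (HOXA2) lower.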
